A study of Mus musculus with 9 samples.

Results

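Cytosolic ribosomal proteins of the small (Rps) and large (Rpl, Rplp) subunit were followed in 9 single mouse oocytes, 1 oocyte per Affymetrix Mouse Gene 1.0 ST array. The members are the genes whose symbol names such a protein and which have a row on the array assigned to that symbol alone. There were 60 of them among 19938 genes, 22 of the small and 38 of the large subunit, and where a gene had several such rows the brightest on average was taken. Another 17 ribosomal protein symbols, among them Rpl3, Rpl11, Rpl32 and Rps27, occurred only in rows shared with other symbols and were not analysed here.

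All oocytes were at metaphase II and came from non-mated ICR females, an outbred strain, aged 2 months and injected with 10 IU PMSG and, 46 hours later, 10 IU hCG. The 3 groups of 3 oocytes differ in how the RNA was prepared: a crude lysate in NuGEN direct lysis buffer, RNA purified with the Arcturus PicoPure kit, and RNA purified with the Qiagen RNeasyMini kit. All were amplified with the Ribo-SPIA chemistry of the NuGEN Ovation One-Direct system. Each condition drew on 3 mice with between 1 and 3 cells from each, and the labels do not tie oocytes to mice. The p-values therefore set differences between group means against the spread of these single cells, and cells of a group may come from the same mouse. The buffer, the column and the mice of a group cannot be told apart. The design asks what the preparation does to the transcriptome read from 1 cell.

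A cytosolic ribosome is built from a small subunit, which holds the mRNA and decodes it, and a large subunit, which joins amino acids and carries the exit tunnel for the growing chain. The mRNAs of most of its proteins are short and abundant and begin with a pyrimidine run, the 5′ terminal oligopyrimidine tract, through which mTOR signalling governs their translation. A metaphase II oocyte does not transcribe and lives on mRNA stored during growth, and in Xenopus oocytes ribosomal protein mRNAs lose their poly(A) tails at maturation.

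The arrays had medians between 7.12 and 7.24, on a scale read as log2, and were already normalized, so differences in the total RNA of a cell cannot be seen in them. As background level, each array was given the 95th percentile of its values for 1233 chemosensory receptor genes (olfactory, vomeronasal and taste). This level lay between 7.23 and 7.29 in direct lysis, 7.19 and 7.26 in PicoPure and 7.26 and 7.47 in RNeasy. Between 10663 and 11443 genes lay above it in direct lysis, between 11005 and 11106 in PicoPure and between 9668 and 10756 in RNeasy. All 12 oocyte markers examined, such as Gdf9, Zp3 and Mos, lay above background on all 9 arrays. Of 13 cumulus and granulosa cell markers with a row, 10, including Fshr and Amh, lay above it on none, Ptx3 on 2, Tnfaip6 on 1 and Foxl2 on all. Tnfaip6 had 6.81 ± 0.19 in direct lysis, 6.54 ± 0.18 in PicoPure and 7.31 ± 0.93 in RNeasy (SD, n = 3 each), and its part in the results was not tested. The mean of those 13 markers ran from 6.68 to 6.85 in direct lysis, 6.61 to 6.74 in PicoPure and 6.67 to 7.05 in RNeasy.

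Start sequences are shown for 8 members on which the comparisons below turn, 20 bases before and 20 bases from the annotated start, with GRCm38.p6 coordinates and RefSeq's sequence. Capitals mark a run of at least 5 pyrimidines (C or T, beginning with C) that starts within 5 bases of the annotated start, and sequences without such a run are in lower case throughout.
Rps9 (chr7:3704021-3704060, plus strand): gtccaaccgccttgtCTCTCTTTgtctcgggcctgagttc
Rps10 (chr17:27635225-27635264, minus strand): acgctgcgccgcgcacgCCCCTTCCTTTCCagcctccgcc
Rps6 (chr4:86857348-86857387, minus strand): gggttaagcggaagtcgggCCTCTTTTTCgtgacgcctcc
Rpl32l (chr10:20208419-20208458, plus strand): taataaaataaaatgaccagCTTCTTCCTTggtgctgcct
Rps4x (chrX:102189372-102189411, minus strand): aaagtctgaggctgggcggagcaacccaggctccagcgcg
Rps28 (chr17:33824543-33824582, minus strand): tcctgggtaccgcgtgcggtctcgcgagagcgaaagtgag
Rpl36a (chrX:134585634-134585673, plus strand): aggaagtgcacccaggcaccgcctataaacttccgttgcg
Rps25 (chr9:44407694-44407733, plus strand): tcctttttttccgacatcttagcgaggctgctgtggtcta
The run was found at the start of 18 of the 48 members with a start sequence (37.5%), against 4989 of 27025 genes with one (18.5%). It was present in 8 of 18 small subunit and 10 of 30 large subunit members. An annotated start a few bases away from the true one would miss the run, and a missing run says only that these letters are not in this window.

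Most members stood clear of background. Of the 60, 47 (78.3%) lay above it on all 9 arrays, against 8598 of all 19938 genes (43.1%). For the small subunit these were 21 of 22 and for the large subunit 26 of 38. The plot of levels by gene shows the members in the order of their mean, and since each gene is read by its own probes only the spread within a gene and its place against background can be read from it.

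**Figure D1:**
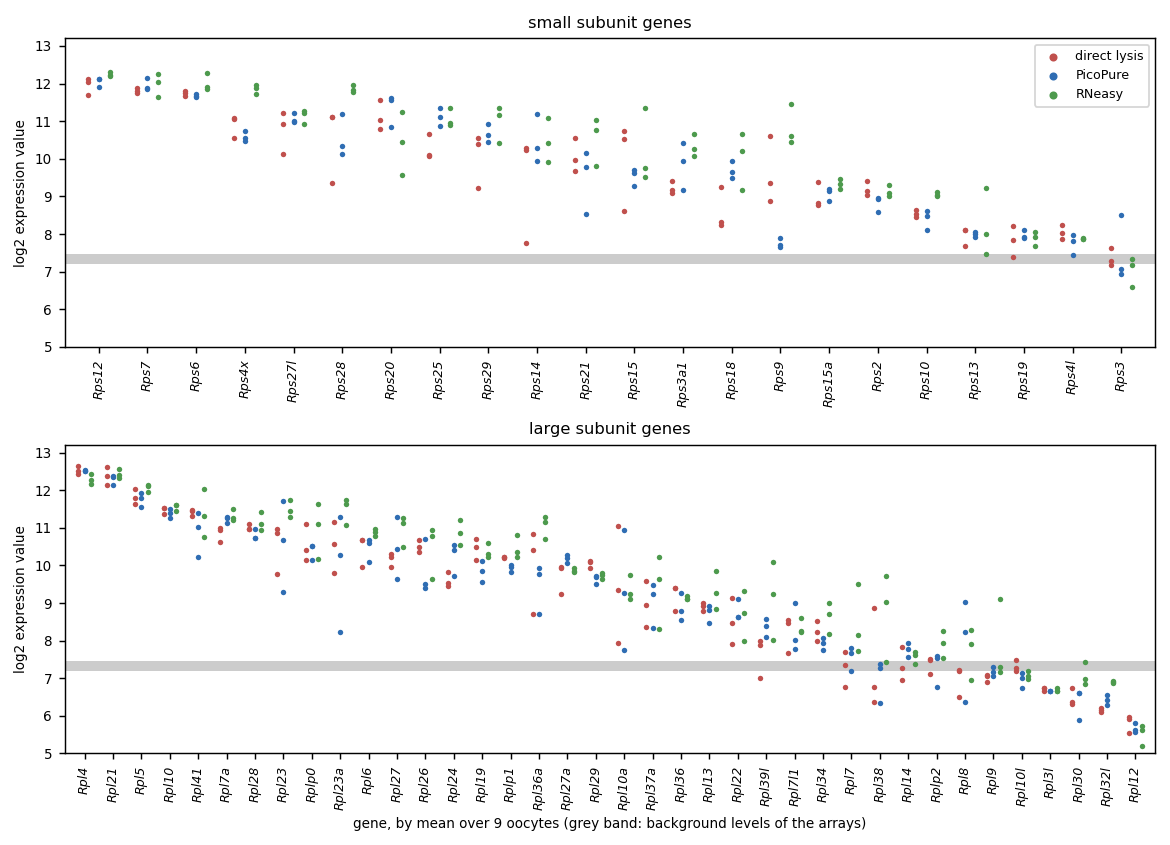
Log2 expression value (vertical axis) of each ribosomal protein gene in each oocyte, with direct lysis, PicoPure and RNeasy side by side in 3 colours and the range of array backgrounds as a grey band. Of the 60 genes, 47 lie above background on all 9 arrays. Gene means run from 5.67 for Rpl12 to 12.44 for Rpl4.

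Rpl12, a protein of the stalk base, Rpl30, Rpl3l and Rpl32l lay above background on none of the arrays. Rpl3l, a paralog of Rpl3 expressed in striated muscle, had 6.75, 6.74 and 6.67 in direct lysis, 6.65, 6.65 and 6.67 in PicoPure and 6.73, 6.67 and 6.67 in RNeasy, below background in every oocyte. Rpl10l, a retrogene of Rpl10 known from the testis, reached 7.49 in 1 direct lysis oocyte and lay below background in the other 8. The X-linked Rpl10, whose protein joins the large subunit late in its assembly, lay between 11.25 and 11.62 on all arrays. The paralog of Rpl39 in the exit tunnel, Rpl39l, also best known from the testis, lay above background in 8 of 9 oocytes, with 7.89, 7.02 and 8.00 in direct lysis, 8.38, 8.57 and 8.11 in PicoPure and 9.23, 10.09 and 8.02 in RNeasy. Other members above background on only part of the arrays were Rpl14 on 8, Rpl7 and the acidic stalk protein gene Rplp2 on 7 each, Rpl38 on 6, Rpl8 on 4, and Rpl9 and Rps3 on 3 each. Rps3, whose protein lines the mRNA entry of the small subunit, had 7.27, 7.18 and 7.62 in direct lysis, 8.51, 7.06 and 6.93 in PicoPure and 7.18, 6.58 and 7.33 in RNeasy, so no group lay wholly above background. Rps4l, which RefSeq lists as a transcribed pseudogene, lay between 7.44 and 8.23, and Rps4x, its X-linked relative, between 10.47 and 11.97. Rps27l and Rpl7l1, relatives of Rps27 and Rpl7, lay above background on all arrays, between 10.12 and 11.26 and between 7.67 and 8.99. Rpl22, which binds a small RNA of Epstein-Barr virus, lay between 7.91 and 9.32. Many ribosomal protein genes have near-identical copies in the genome, and a row may collect signal from several of them.

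Ribosomal protein genes were lower in PicoPure than in RNeasy oocytes in 50 of 60 cases, with a median difference of -0.33 on the log2 scale, where the median of all genes was -0.03 and 58.5% of them were negative. The shift was present in both subunits, with 18 of 22 small and 32 of 38 large subunit genes negative and medians of -0.28 and -0.45. The arrays of the groups did not overlap for 16 members that were lower in PicoPure (26.7%), where 7.03% of all genes met the same rule, and for 2 that were higher, Rpl4 and Rpl27a, where the background was 6.92%. A difference below -0.5 was seen in 22 members (36.7%) and in 2.87% of all genes. None of the 60 passed an adjusted p of 0.05 (limma, Benjamini-Hochberg over all 19938 genes), where 12 of all genes did (0.0602%, with 0.0401% higher and 0.0201% lower). At an unadjusted p under 0.05, 16 members were lower and 1 was higher, where 3.36% of all genes were lower and 4.62% higher.

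**Figure D2:**
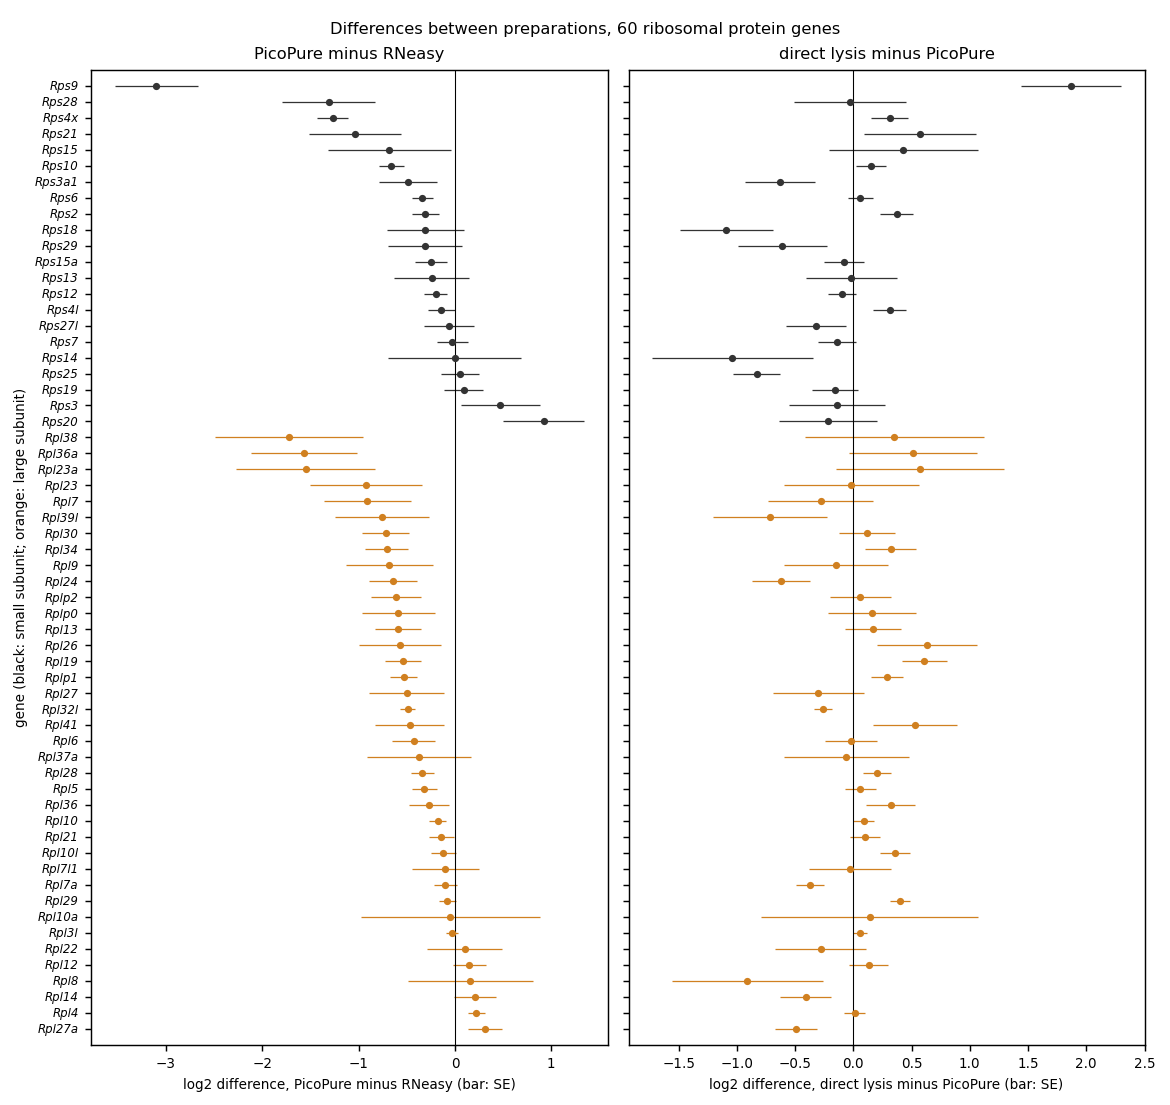
Log2 difference (horizontal axis) of each of the 60 genes, PicoPure minus RNeasy on the left and direct lysis minus PicoPure on the right. Points are differences of group means (n = 3 each), bars are standard errors of the limma fit, black marks small and orange large subunit genes. On the left 50 of 60 points lie below 0, on the right 29 of 60.

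The direction did not hang on the row chosen for a gene or on 1 oocyte. Of the 212 rows assigned to a member alone, 191 (90.1%) were negative, and of the 38 members with several rows 35 were negative in every one, the exceptions being Rpl10a, Rpl27a and Rps25. Rows of a gene may overlap in sequence and are not independent. With each of the 6 arrays left out in turn, between 45 and 52 members were negative, where the share of all genes ran from 53.3% to 61.7%.

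Rps9, whose protein is related to bacterial S4, known for its part in decoding accuracy, had the largest difference of the set. It had 7.71, 7.65 and 7.90 in PicoPure, against 10.46, 10.61 and 11.47 in RNeasy, and 9.37, 8.88 and 10.60 in direct lysis. The PicoPure oocytes were all lower than any other and close to background, and the highest direct lysis oocyte lay within the RNeasy range. The difference of -3.10 ± 0.43 (SE), 8.57-fold on the linear scale, had an adjusted p of 0.0928 in limma, and adjusted p ran from 0.045 to 0.291 over its alternatives, the lowest without direct lysis 3. The size depends on the row: the other row of Rps9 differed by -1.65, and the mean of both rows by -2.37.

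Rps4x, a small subunit protein gene on the X chromosome, had 10.75, 10.47 and 10.55 in PicoPure, against 11.89, 11.71 and 11.97 in RNeasy. Direct lysis had 11.07, 10.54 and 11.09, and the RNeasy oocytes were above all others. The difference between the kits was -1.27 ± 0.16 (SE), 2.4-fold, with an adjusted p of 0.0673 in limma, ranging from 0.0318 without direct lysis 2 to 0.243 over its alternatives. Over all 3 preparations the moderated F of limma passed for Rps4x (adjusted p = 0.0359) and for Rpl32l (adjusted p = 0.026), which makes 2 of 60 members where 0.637% of all genes were called. All values of Rpl32l lie below background. Rps9 had an adjusted p of 0.0519 in that test and passed it with median centring, with trend and robust fitting, after the filter on low values, and without direct lysis 2 or 3. The call for Rps4x was lost without any 1 of the oocytes direct lysis 1 or 3, PicoPure 1, 2 or 3, or RNeasy 1, 2 or 3, and with the mean of all rows. The call for Rpl32l was lost without any 1 of direct lysis 1, 2 or 3, PicoPure 1, or RNeasy 1, 2 or 3, and with values raised to background. Both calls were also lost with the replicate block.

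Rpl38, Rpl36a and Rpl23a of the large subunit also had large differences between the kits. Rpl36a, also X-linked, had 9.77, 9.94 and 8.72 in PicoPure, against 11.16, 10.69 and 11.29 in RNeasy, with no overlap and a difference of -1.57 ± 0.55 (SE; limma, adjusted p = 0.536). Rpl38, the gene mutated in the Tail-short mouse, had 7.27, 7.38 and 6.33 in PicoPure, against 9.71, 7.43 and 9.02 in RNeasy. Its groups were separated by a narrow margin between PicoPure 2 and RNeasy 2, and the difference was -1.72 ± 0.77 (SE; limma, adjusted p = 0.643). As 1 of the PicoPure values lies below background and the others just above it, the size is uncertain, and with values raised to background it was -1.42. Rpl23a, whose protein sits at the tunnel exit where the signal recognition particle docks, had 11.30, 10.29 and 8.22 in PicoPure, against 11.74, 11.07 and 11.63 in RNeasy. PicoPure 3 lay far under the other PicoPure oocytes, the groups overlapped, and the difference was -1.55 ± 0.72 (SE; limma, adjusted p = 0.654), with all 13 rows of Rpl23a negative. Without PicoPure 3 it was -0.69, and without PicoPure 1 it was -2.23.

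The small subunit genes Rps28 and Rps10 were also separated between the kits. Rps28 had 10.35, 11.18 and 10.12 in PicoPure, against 11.82, 11.78 and 11.95 in RNeasy, a difference of -1.31 ± 0.48 (SE; limma, adjusted p = 0.552). Rps10, whose protein is ubiquitylated on stalled ribosomes, had 8.60, 8.11 and 8.47 in PicoPure, against 9.11, 9.01 and 9.04 in RNeasy, a difference of -0.66 ± 0.13 (SE; limma, adjusted p = 0.197). In both genes the RNeasy oocytes lay close together and above all PicoPure oocytes. The phosphorylation target of S6 kinase, Rps6, was also without overlap, with 11.71, 11.67 and 11.65 in PicoPure, against 11.85, 12.28 and 11.92 in RNeasy, a difference of -0.34 ± 0.11 (SE; limma, adjusted p = 0.511). Rpl5, which carries the 5S rRNA into the large subunit, had 11.78, 11.56 and 11.92 in PicoPure, against 11.95, 12.15 and 12.12 in RNeasy. Of the stalk proteins, Rplp1 had 9.82, 10.00 and 9.96 in PicoPure, against 10.81, 10.22 and 10.36 in RNeasy, while Rplp0 and Rplp2 overlapped with differences of -0.59 and -0.61. Rpl4, which lines the exit tunnel, ran the other way with 12.55, 12.50 and 12.50 in PicoPure, against 12.26, 12.44 and 12.17 in RNeasy, a difference of 0.22 ± 0.09 (SE; limma, adjusted p = 0.594). The largest difference in that direction was in Rps20, at 0.92 ± 0.42 (SE; limma, adjusted p = 0.646). It had 11.61, 10.85 and 11.57 in PicoPure, against 11.24, 9.58 and 10.44 in RNeasy, and the groups overlapped.

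**Figure D3:**
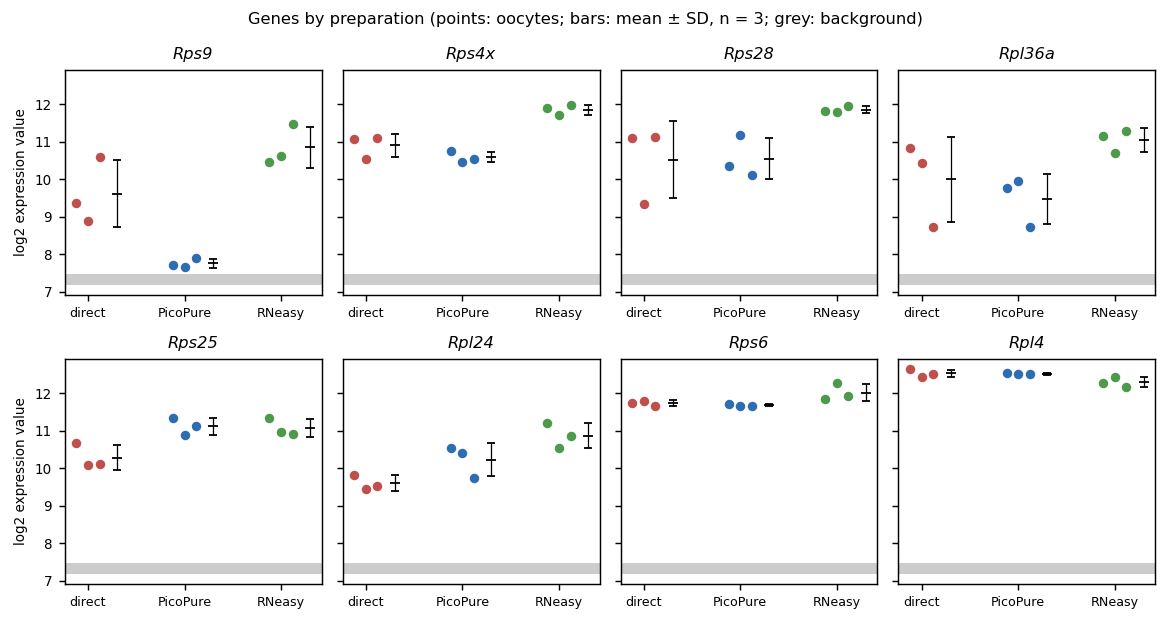
Log2 expression value (vertical axis) of 8 members by preparation, direct lysis, PicoPure and RNeasy from left to right. Points are oocytes, bars are means ± SD (n = 3 each) and the grey band is the range of array backgrounds. Rps9 in PicoPure sits just above the band, at 7.65 to 7.90, and Rps25 is lowest in direct lysis, at 10.08 to 10.66.

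A start run was annotated in 8 of the 14 members with a start sequence that were lower in PicoPure without overlap (57.1%). It was annotated in 10 of the other 34 (29.4%), with chromosome 18 again left out. Of the sequences printed above, Rps9, Rps10, Rps6 and Rpl32l have the run and lie in the set lower in PicoPure. Rps4x, Rps28 and Rpl36a lie in it without the run. That set was picked by its values, and Rpl32l lies below background on all arrays. Of the members lower in direct lysis than in RNeasy without overlap, Rpl32l, Rpl7a, Rplp2, Rps10 and Rps6 have the run. The others of them with a start sequence, which are more numerous, lack it. A link between the run and these differences was not tested.

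In direct lysis 46 of 60 members were lower than in RNeasy, where 51.1% of all genes were, with a median of -0.36 against 0.00 for all genes to 2 decimals. Small and large subunit medians were -0.36 and -0.33. This comparison shares the RNeasy arrays with the one between the kits. Without overlap 18 members were lower (30%), at a background of 8.89%, and 1 was higher, Rpl29, at a background of 7.97%. With each of the 6 arrays left out in turn between 44 and 48 members were negative. In limma 1 member was called, Rpl32l, at 0.436% of all genes in either direction and 0.271% lower. At an unadjusted p under 0.05, 16 members were lower and 2 higher, where 7.21% and 6.24% of all genes were.

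Rpl32l fell in direct lysis, with 6.11, 6.15 and 6.20 in direct lysis, against 6.91, 6.88 and 6.93 in RNeasy, and 6.41, 6.56 and 6.29 in PicoPure. The 3 preparations did not overlap, yet all 9 values lie below background, and a fold change is not given for that reason. The difference of -0.75 ± 0.08 (SE) had an adjusted p of 0.0194 in limma, and over 16 alternatives adjusted p ran from 0.0167 to 0.167. The call was lost without RNeasy 1, 2 or 3, with adjusted p of 0.084, 0.0699 and 0.0674 in limma. It was also lost with the replicate block, at 0.0851, with only the groups compared, at 0.0802, and with values raised to background, where the difference was -0.12.

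Other members with large differences to RNeasy did not pass. Rpl24, the gene of the Belly spot and tail mouse, had 9.83, 9.44 and 9.53 in direct lysis, against 11.20, 10.53 and 10.87 in RNeasy, with no overlap and a difference of -1.26 ± 0.25 (SE; limma, adjusted p = 0.0867). Rps18, a protein of the small subunit head, had 8.33, 9.26 and 8.23 in direct lysis, against 9.17, 10.20 and 10.65 in RNeasy, where direct lysis 2 overlaps RNeasy 1 and the difference was -1.40 ± 0.40 (SE; limma, adjusted p = 0.213). Rpl39l had a difference of -1.48 ± 0.49 (SE; limma, adjusted p = 0.268), without overlap, and of -0.98 without RNeasy 2. Rps28 had 11.10, 9.35 and 11.12 in direct lysis, all below RNeasy, and Rpl38 had 8.88, 6.76 and 6.38, which overlap it. For Rps4x direct lysis differed from RNeasy by -0.95 ± 0.16 (SE; limma, adjusted p = 0.0586). Rpl23, a large subunit protein that binds Mdm2, had 10.98, 9.77 and 10.87 in direct lysis, against 11.44, 11.30 and 11.73 in RNeasy, without overlap, and its difference of -0.95 ± 0.58 (SE) had an adjusted p of 0.493 in limma. Rpl7 had 7.34, 6.76 and 7.70 in direct lysis, against 7.72, 8.15 and 9.50 in RNeasy, with direct lysis near background. A second row of Rpl7a, tested with all rows in the fit, was lower by -0.62 ± 0.10 (SE; limma, adjusted p = 0.0426), while the row that represents the gene had -0.47 and an adjusted p of 0.181. That row was singled out after its value was seen.

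**Figure D4:**
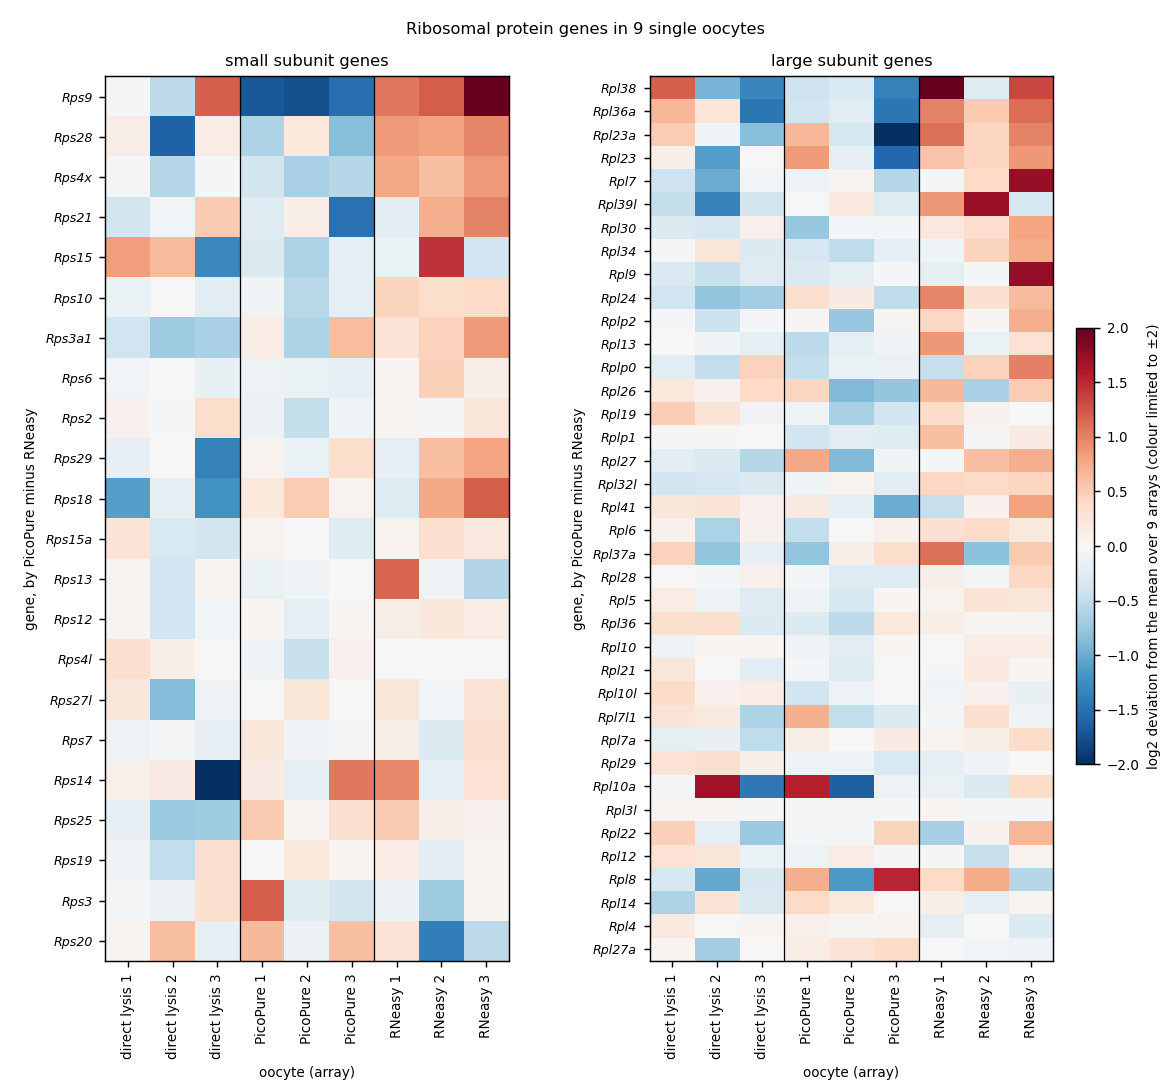
Deviation of each gene from its mean over 9 arrays (colour, log2, limited to ±2), small subunit on the left and large subunit on the right, genes ordered by PicoPure minus RNeasy, arrays in columns. RNeasy columns are mostly red. In RNeasy 1, 2 and 3, 16, 15 and 8 of the 47 members above background on all arrays lie below their mean. Of all genes above background on all arrays, 47.4%, 52.9% and 51.2% do.

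Between crude lysate and PicoPure the median difference of the set was 0.03, where that of all genes was 0.01. Of the members 29 were negative and 31 positive, where 46.7% of all genes were negative. Among genes above background on all arrays, 22 of 47 members and 56.7% of all genes were negative, with medians of 0.06 and -0.03. Without overlap 6 members were lower and 7 higher in direct lysis, at backgrounds of 7.67% and 8.94%. None was called in limma, where 0.597% of all genes were, and at an unadjusted p under 0.05, 6 were lower and 5 higher, where 5.91% and 6.37% of all genes were. Rps9 was 3.65-fold higher in direct lysis than in PicoPure, by 1.87 ± 0.43 on the log2 scale (SE; limma, adjusted p = 0.126), and Rps18 differed by -1.09 ± 0.40 (SE; limma, adjusted p = 0.338), both without overlap. The other row of Rps9 differed by 0.30 between direct lysis and PicoPure, and the mean of both rows by 1.08. Rps14, lost in the human 5q- syndrome, had 10.23, 10.28 and 7.77 in direct lysis, against 10.28, 9.94 and 11.18 in PicoPure, so the difference of -1.04 rests on direct lysis 3 and is -0.21 without it. Rpl26 had a difference of 0.63 ± 0.43 (SE; limma, adjusted p = 0.593), with 10.49, 10.36 and 10.68 in direct lysis, against 10.71, 9.40 and 9.51 in PicoPure. That difference was 0.40 without PicoPure 2 and 1.05 without PicoPure 1.

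Set against all 6 purified oocytes, the crude lysate was lower in 40 of 60 members, where 49.4% of all genes were, with a median of -0.17 in the whole set and in each subunit, where all genes had 0.00. After further quantile normalization it was -0.08, where all genes had 0.04. This median joins the 2 comparisons with the single kits, which gave -0.36 and 0.03. Without overlap 4 members were lower, Rps25, Rpl7a, Rpl39l and Rpl32l, at a background of 3.72%, and Rpl29 was higher, at 4.31%. In limma 1 member was called, Rpl32l, which fell by 0.51 (SE 0.07, adjusted p = 0.0215), again wholly below background, where 1.01% of all genes were called, 0.667% lower and 0.341% higher. At an unadjusted p under 0.05, 7 members were lower and 2 higher, where 7.01% and 7.18% of all genes were. Among genes above background on all arrays, 5 of 47 members and 893 of 8598 genes were lower at that p, and 1 and 528 were higher. Lower without overlap were 4.26% of those members and 5.32% of those genes. Negative differences made up 66% and 53.4% of them. Rpl32l lost its call without any 1 of direct lysis 1, 2 or 3, PicoPure 1 or 2, or RNeasy 1, 2 or 3. With 1 of these left out, its adjusted p in limma lay between 0.0516 and 0.0686. The call was also lost with the replicate block (adjusted p = 0.0876), with only the groups compared (adjusted p = 0.198) and with values raised to background, where the difference was -0.05. Rps25, a small subunit protein needed for initiation at viral internal ribosome entry sites, had 10.66, 10.08 and 10.11 in crude lysate, against 11.34, 10.88 and 11.12 in PicoPure and 11.34, 10.96 and 10.91 in RNeasy. Its difference of -0.81 ± 0.17 (SE) had an adjusted p of 0.0869 in limma and 0.0416 without direct lysis 1. Rpl29 had 10.10, 10.11 and 9.92 in crude lysate, against 9.73, 9.70 and 9.50 in PicoPure and 9.64, 9.74 and 9.80 in RNeasy, a difference of 0.35 ± 0.08 (SE; limma, adjusted p = 0.102). Rps3a1 had 9.41, 9.10 and 9.16 in crude lysate, against a purified mean of 10.09 ± 0.51 (SD, n = 6), a difference of -0.87 ± 0.26 (SE; limma, adjusted p = 0.197).

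Both subunits stood highest in RNeasy oocytes. The median deviation of small subunit genes from their own means was -0.03, -0.15 and -0.11 in direct lysis, 0.00, -0.14 and -0.03 in PicoPure and 0.14, 0.28 and 0.26 in RNeasy. For large subunit genes it was 0.05, -0.07 and -0.18 in direct lysis, -0.05, -0.19 and -0.07 in PicoPure and 0.10, 0.09 and 0.37 in RNeasy. Both subunits were above 0 in all RNeasy oocytes and at or below it in 5 of the other 6, direct lysis 1 having the large subunit above. Over all genes above background on all arrays the medians stayed between -0.02 and 0.02. RNeasy arrays 1 and 3 also had the highest background levels, 7.41 and 7.47, and the fewest genes above background, 10092 and 9668, and the part of this in the shift was not tested. The small minus the large subunit median was -0.07, -0.08 and 0.07 in direct lysis, 0.06, 0.05 and 0.05 in PicoPure and 0.04, 0.19 and -0.11 in RNeasy. The groups overlap in that difference. The difference between subunits in the PicoPure against RNeasy comparison, 0.17, ranged from 0.03 to 0.22 with 1 array left out, and was 0.03 without RNeasy 1, 0.05 without RNeasy 3 and 0.11 without PicoPure 3.

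**Figure D5:**
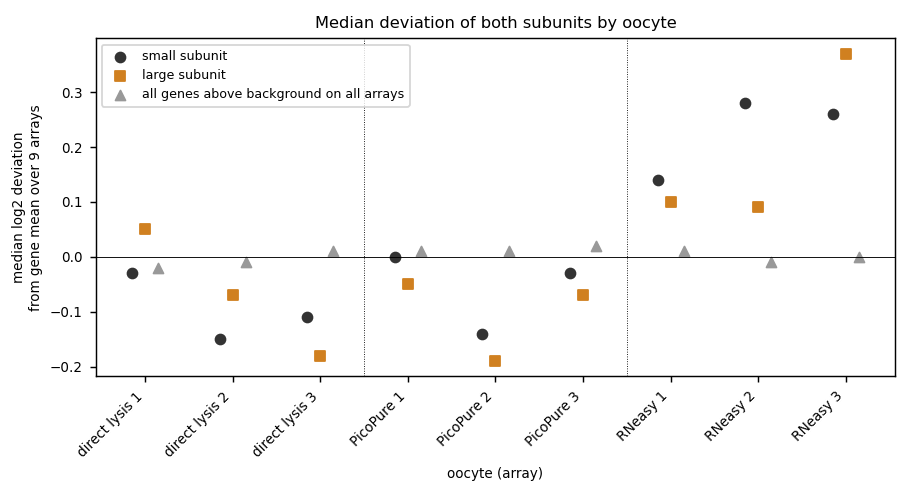
Median log2 deviation from the gene mean (vertical axis) of small subunit genes, large subunit genes and all genes above background on all arrays, for each of the 9 oocytes (horizontal axis). Both subunits lie above 0 in the 3 RNeasy oocytes, while all genes stay between -0.02 and 0.02.

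Ribosomal protein genes had larger SDs between oocytes of the same preparation than genes in general. Their median pooled SD within preparations was 0.334, 0.381 in the small and 0.326 in the large subunit, against 0.152 over all genes. Among genes above background on all arrays it was 0.324 for the members and 0.193 for all genes. The most variable of these were Rpl10a, of the L1 stalk, at 1.30, Rpl23a at 1.01, Rps14 at 0.97 and Rps15, which acts in export of the small subunit precursor, at 0.90. Rpl10a had 9.35, 11.06 and 7.95 in direct lysis, 10.93, 7.74 and 9.28 in PicoPure and 9.24, 9.11 and 9.75 in RNeasy, with the widest spread in the first 2 groups. Rps15 had 10.74, 10.53 and 8.60 in direct lysis, 9.61, 9.27 and 9.70 in PicoPure and 9.76, 11.34 and 9.52 in RNeasy. The least variable were Rpl4 and Rpl10 at 0.10, Rpl29 at 0.11 and Rps6 at 0.14. Deviations from the gene mean over all 9 arrays also hold differences between preparations. Those of more than 1 below it were most frequent in direct lysis 3, with 6 of the 47 members, Rpl10a, Rpl36a, Rps14, Rps15, Rps18 and Rps29. PicoPure 3 had 5, Rpl23, Rpl23a, Rpl36a, Rps9 and Rps21. Rps9 also lay that far below in PicoPure 1 and 2, and Rps18 in direct lysis 1. In direct lysis 3 and PicoPure 3, 1.95% and 0.733% of all genes above background lay that far below. No member lay that far below its mean in RNeasy 1 or 3, and Rps20 did in RNeasy 2. Of all genes above background, 0.488%, 0.233% and 1.41% did in RNeasy 1, 2 and 3. More than 1 above the mean lay 4 members in RNeasy 1, 2 in RNeasy 2 and 4 in RNeasy 3. The shares of all genes above background were 0.721%, 1.2% and 0.977%. Each other array had 0 or 1 such member, where between 0.407% and 0.872% of all genes above background lay that far above.

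Genes that work with the ribosome were followed beside its proteins. Of 14 elongation and termination factor genes and 63 ribosome assembly genes with a row, none passed limma's adjusted p of 0.05 in any of the 4 comparisons, where between 0.0602% and 1.01% of all genes were called, so few calls could be looked for in lists of this size. At an unadjusted p under 0.05 for PicoPure against RNeasy, 1 factor gene was lower and 2 were higher, and 1 assembly gene was lower and 9 were higher, where 3.36% of all genes were lower and 4.62% higher. Their median differences for PicoPure against RNeasy were -0.06 and 0.07, against -0.33 for the ribosomal proteins. Of the ribosomal proteins with names of another form, Rpsa had 8.23 ± 0.10 in PicoPure, against 8.60 ± 0.26 in RNeasy (SD, n = 3 each), and Fau 10.39 ± 0.38 in PicoPure, against 10.44 ± 0.27 in RNeasy (SD, n = 3 each).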

How the data were processed

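Single oocytes were measured on 9 arrays, 3 for each preparation, with groups taken from the sample titles. The authors deposited 1 normalized value per row and array, 35556 rows with 0 missing values between 2.41 and 13.90, read here as log2 expression values from their range, since the scale is not stated. The submitters' processing notes name GCRMA, GCOS and Affymetrix Expression Console, without versions or roles, and a genome build was not given in these sources. The number of arrays limits the precision.

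Gene symbols came from the probe table of the platform: 21789 rows had 1 symbol and were used, 1621 had several and 12146 had none. The members have 212 rows with 1 symbol and occur in 237 shared rows, and all 60 matched RefSeq by symbol. No filter or further normalization was applied. Tests used lmFit and eBayes of limma 3.58.1 under R 4.3.3 (1 fit over 9 arrays, 6 residual degrees of freedom, two-sided, Benjamini-Hochberg over 19938 genes, threshold 0.05). The fit was tested on simulated data. For the set, counts and medians beside those of all genes are descriptions.

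Members, lists and comparisons were chosen with earlier results of these data known. Genes named are those past the threshold, the 6 largest differences per comparison above background in a group, members not above background on all arrays, paralog pairs, the 4 most and 4 least variable, and a fixed panel, 38 members in all. Further names came from the counts without overlap (Rps10, Rpl7a, Rpl27a) and from deviations of single arrays (Rps20, Rps21, Rps29) and were chosen after their values were seen, as were the counts of negative members with an array left out. Deviations of same-numbered oocytes from their group means correlated between -0.07 and 0.11 and those of others between -0.09 and 0.14. These values show no sign of pairing by number, but a small shared effect could be missed, and the labels do not state a pairing. The alternatives were values raised to background, quantile normalization, median centring, a filter on low values, the mean of all rows, a variance trend with robust fitting, a fit of the compared groups only, a replicate block and each array left out.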

Additional observations from a re-analysis of the deposited data

Results flagged for a closer look

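In groups of 4 to 10 arrays a value was looked at again when its gap to the nearest other, divided by the range of the group, passed Dixon's 95% critical value, which left the 6 purified oocytes as the only group tested. Chance alone marks about 1 group in 20, and 60 genes were screened. Rpl9 had 9.10 in RNeasy 3, against 7.05 to 7.30 in the other purified oocytes. Rps15 had 11.34 in RNeasy 2, against 9.27 to 9.76. Rps4l had 7.44 in PicoPure 2, against 7.81 to 7.98. Rpl3l had 6.73 in RNeasy 1, against 6.65 to 6.67, all of them below background.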

How the results depend on the processing

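The medians kept their sign under all alternatives except direct lysis against PicoPure, which lay near 0. With 1 array left out they ran from -0.38 to -0.25 for PicoPure against RNeasy, -0.43 to -0.28 for direct lysis against RNeasy, -0.21 to -0.11 for crude lysate against purified RNA and -0.07 to 0.08 for direct lysis against PicoPure. Quantile normalization gave -0.26 for direct lysis against RNeasy and -0.08 for crude lysate against purified RNA. Raising values to background gave -0.31 for PicoPure against RNeasy, where all genes shifted to -0.15, and -0.29 for direct lysis against RNeasy, where they shifted to -0.12 and the small minus large subunit difference was -0.15. That difference ran from -0.22 to -0.01 with 1 array left out, from -0.18 to 0.04 for crude lysate against purified RNA, 0.03 to 0.22 for PicoPure against RNeasy and -0.26 to -0.11 for direct lysis against PicoPure. Counts of called members were small throughout. For crude lysate against purified RNA there was 1, with 0 after raising values to background, after the filter and with only the groups compared, 2 after quantile normalization (Rpl29 and Rpl32l), and 0 to 1 with an array left out. For PicoPure against RNeasy there were 0, with 1 (Rps4x) after the filter and 0 to 1 with an array left out. For direct lysis against RNeasy there was 1, with 0 after raising values to background and with only the groups compared. There were 2 after median centring (Rpl32l and Rps4x), 1 after the filter (Rps4x in place of Rpl32l), and 0 to 1 with an array left out. Over any of the 3 preparations there were 2, with 1 after raising values to background (Rps4x), 1 with the mean of rows (Rpl32l), 3 with median centring and with trend and robust fitting (with Rps9), 2 after the filter (Rps4x and Rps9) and 0 to 2 with an array left out. With the replicate block, whose numbers are not known to pair the oocytes, direct lysis against RNeasy and the test over 3 preparations had 0. Crude lysate against purified RNA kept 1, Rps25 (limma, adjusted p = 0.048) in place of Rpl32l (0.0876). The filter removes Rpl32l, and the smaller fits have fewer arrays; the cause of the other changes was not tested. Over all genes, quantile normalization gave 101 higher and 83 lower calls for crude lysate against purified RNA (68 and 133 as reported) and 69 and 42 for direct lysis against RNeasy (33 and 54 as reported), and the block gave 25 calls in place of 201 and 15 in place of 87. Of 440 values for single genes 418 kept direction and side of the threshold, 17 lost a call, all of Rpl32l, and 5 gained one. Among these comparisons only Rpl32l had a call as reported, so for the other genes keeping the side meant staying uncalled. Rpl32l lost its call in 11 of 16 alternatives for crude lysate against purified RNA and in 6 of 16 for direct lysis against RNeasy. With 3 oocytes a group and no scanner files, low members cannot be told from background.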
